A study of Homo sapiens with 10 samples.

Results

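The genes described here are 48 protein-coding genes whose products take a cell into and through mitosis. They encode the cyclins and kinases that start the division, the checkpoint that times it, the kinetochores and the spindle that move the chromosomes, the condensin ring that compacts them and the proteins that separate the daughter cells. They were chosen by gene symbol, as the rows of the count table that carry a listed name. All 48 were found among the 32738 genes of the table, and all 48 passed the filter on low counts, which left 12733 genes for testing. The cells were HepG2, a human hepatoma line that keeps many functions of hepatocytes and divides in culture. They received regular growth medium as control or medium with 2 µg/ml tunicamycin for 17 h, and no vehicle is named for the control. Tunicamycin blocks N-linked glycosylation and thereby loads the endoplasmic reticulum (ER) with unfolded proteins. Each condition had 5 libraries, the 5 experiments were done on separate days, and the sequenced fragments came from near the 3′ end of each mRNA (the QuantSeq method), so that long and short transcripts yield similar numbers.

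Most mitotic genes are transcribed in the late part of the cell cycle and are silent in cells that rest. Many of their promoters share a short element close to the start site, the cell cycle genes homology region (CHR), which recruits the MuvB core. With RBL1 or RBL2 (the p107 and p130 proteins), E2F4 or E2F5 and a DP partner, MuvB forms the repressing DREAM complex. With MYBL2 (B-MYB) and FOXM1 it activates the same promoters. CCAAT boxes upstream of the CHR bind the activator NF-Y. Since these genes are on in dividing cells, their mRNAs are widely used to gauge proliferation.

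The promoter sequences of 7 members are shown first, because the elements above sit in them and because these genes span the range of the response. MKI67 and SPC25 had the largest decreases of all members, NCAPG and NCAPD2 encode subunits of the same condensin ring that parted from each other, CCNB2 has 4 CCAAT words upstream of a CHR word and a small decrease, and CDC20 and CENPA did not pass the test. Each sequence is the RefSeq window from 250 bases before to 50 bases after the start site on GRCh38.p14, written 5′ to 3′ in the direction of transcription. Capitals mark CHR words (TTTGAA or TTCGAA) and CCAAT words on either strand, so that ATTGG is CCAAT read from the other strand and TTCAAA is TTTGAA. In MKI67 a CHR word and a CCAAT word share a base.
MKI67, chr10:128126374-128126673, minus strand: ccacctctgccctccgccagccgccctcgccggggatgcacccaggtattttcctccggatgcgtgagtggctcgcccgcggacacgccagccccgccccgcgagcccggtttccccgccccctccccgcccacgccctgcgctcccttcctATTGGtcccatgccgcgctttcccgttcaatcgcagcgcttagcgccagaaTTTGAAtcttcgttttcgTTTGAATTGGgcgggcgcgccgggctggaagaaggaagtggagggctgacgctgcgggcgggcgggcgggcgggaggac
SPC25, chr2:168890381-168890680, minus strand: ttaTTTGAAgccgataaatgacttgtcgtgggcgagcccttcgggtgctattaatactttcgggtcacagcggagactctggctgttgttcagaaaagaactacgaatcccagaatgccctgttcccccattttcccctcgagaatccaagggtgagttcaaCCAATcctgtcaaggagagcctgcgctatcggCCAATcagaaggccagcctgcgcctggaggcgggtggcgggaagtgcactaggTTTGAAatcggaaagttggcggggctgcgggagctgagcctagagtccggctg
NCAPG, chr4:17810729-17811028, plus strand: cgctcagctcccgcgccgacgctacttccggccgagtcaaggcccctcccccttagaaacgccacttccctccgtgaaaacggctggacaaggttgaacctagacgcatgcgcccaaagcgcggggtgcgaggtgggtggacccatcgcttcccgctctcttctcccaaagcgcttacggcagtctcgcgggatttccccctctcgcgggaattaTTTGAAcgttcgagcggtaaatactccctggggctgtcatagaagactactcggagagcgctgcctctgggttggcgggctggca
NCAPD2, chr12:6493852-6494151, plus strand: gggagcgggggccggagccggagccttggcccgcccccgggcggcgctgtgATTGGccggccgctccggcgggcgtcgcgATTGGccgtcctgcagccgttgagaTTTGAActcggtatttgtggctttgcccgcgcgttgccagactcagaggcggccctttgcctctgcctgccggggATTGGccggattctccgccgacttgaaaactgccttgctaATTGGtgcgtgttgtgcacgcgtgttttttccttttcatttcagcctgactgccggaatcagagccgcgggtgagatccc
CCNB2, chr15:59104896-59105195, plus strand: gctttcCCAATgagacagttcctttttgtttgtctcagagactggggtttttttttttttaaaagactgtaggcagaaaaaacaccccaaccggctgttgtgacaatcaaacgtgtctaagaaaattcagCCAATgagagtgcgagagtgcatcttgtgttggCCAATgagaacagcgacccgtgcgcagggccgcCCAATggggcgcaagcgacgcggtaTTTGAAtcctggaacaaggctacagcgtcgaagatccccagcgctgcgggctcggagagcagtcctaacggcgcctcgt
CDC20, chr1:43358731-43359030, plus strand: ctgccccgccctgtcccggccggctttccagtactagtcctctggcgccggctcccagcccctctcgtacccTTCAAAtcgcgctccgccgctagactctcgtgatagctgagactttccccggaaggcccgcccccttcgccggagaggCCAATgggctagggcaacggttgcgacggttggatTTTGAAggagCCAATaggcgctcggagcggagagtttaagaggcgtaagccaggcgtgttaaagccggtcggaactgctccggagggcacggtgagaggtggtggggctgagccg
CENPA, chr2:26785806-26786105, plus strand: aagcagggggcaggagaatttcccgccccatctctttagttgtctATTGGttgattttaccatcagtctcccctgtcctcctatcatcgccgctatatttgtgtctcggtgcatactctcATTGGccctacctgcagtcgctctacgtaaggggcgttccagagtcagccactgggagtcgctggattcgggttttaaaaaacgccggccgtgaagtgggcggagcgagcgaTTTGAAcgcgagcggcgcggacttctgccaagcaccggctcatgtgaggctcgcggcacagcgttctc
The CHR words of MKI67 began at positions -47 and -29 from the start site, that of NCAPG at -35, that of CCNB2 at -29 and that of CENPA at -18. SPC25 had a CHR word that runs over the start site, from -3, and another at -247. In CDC20 the words began at -178 and -65, and in NCAPD2 the only one began at -145.

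A RefSeq promoter was found for 42 of the 48 members, and AURKA, BIRC5, BUB3, TPX2, TTK and UBE2C were not matched. A CHR word stood in 31 of the 42 promoters (73.8%), against 16.6% of the 27305 promoters of the same length in the RefSeq set. With the whole word within 50 bases of the start, the share was 59.5% of members, 25 genes, against 5.05% of all promoters. A CCAAT word stood in 31 members too (73.8%, against 35.7% of all promoters), and 20 members (47.6%, against 11.3%) had CCAAT at 2 or more places. A CHR word together with a CCAAT word was found in 24 members (57.1%, against 6.58%). The E2F words TTTCCCGC, TTTGGCGC and TTTCGCGC, which overlap neither of the other words, were in 3 members (7.14%, against 2.79%). For each gene symbol the first listed window of full length was used. The set of all promoters was not limited to the genes tested here. These are matches of letters and not measured binding.

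The counts per library came to between 4242538 and 4888292 in control cells and between 2234682 and 5029864 in tunicamycin-treated cells, where replicates 5 and 4 were the lowest. All 6 ER stress genes used to check the treatment rose, among them HSPA5, which encodes the chaperone BiP, from 8445 ± 559 to 66202 ± 4410.5 normalized counts (SD, n = 5). A normalized count is a gene's count over the TMM-scaled total of its library, times the mean of those totals. All 10 hepatocyte markers, such as ALB and AFP, were detected, with a summed level of 91689 to 106207 in control and 69776 to 77777 in tunicamycin libraries. Of 6 fibroblast markers COL1A2, DCN and LUM were at 0 in every library, and their summed level was at most 3.05 in control and 4.72 in tunicamycin libraries. Of 5 blood and endothelial markers PTPRC, CD3E and HBB were at 0 in every library, and the summed level, nearly all CD68, was 16.6 to 35.3 in control and 10.1 to 26.1 in tunicamycin libraries.

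Tunicamycin lowered most of the mitotic genes. Here a gene is called where its Benjamini-Hochberg adjusted p from edgeR, over all 12733 tested genes, is below 0.05. Of the 48, 35 were called lower (72.9%) and 1 was called higher, whereas 16.6% of all tested genes were called lower, 17.6% higher and 34.2% in either direction. The other 12 members did not pass the test, and 11 of these had estimates below 0. The median log2 fold change of the members was -0.55, a 1.46-fold decrease, beside -0.0033 for all tested genes, and single members ran from -1.46 to 0.29. A decrease of more than 2-fold was called for 7 members (MKI67, SPC25, INCENP, NCAPG, NUSAP1, NDC80 and SPC24), whereas 3.65% of all genes were lower by that much. In 32 members every tunicamycin library was below every control library, which was so for 11.9% of all genes, and 35 members were lower in all 5 replicate pairs, as were 20.4% of all genes. With library size only in place of TMM, 59.2% and not 48.6% of all genes called were lower, and 36 members were called lower and 0 higher. In bulk libraries, fewer cells in mitosis and less mitotic mRNA per cell cannot be told apart.

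Taken as a sum, the 48 genes gave 0.626% to 0.711% of the counts of a control library and 0.33% to 0.462% of those of a tunicamycin library. Their summed normalized counts were 28900.4 ± 1218 in control and 17570.0 ± 1514 in tunicamycin cells (SD, n = 5), with the lowest control library at 26984 and the highest tunicamycin library at 19635. The median over members was -0.39 in the log2 ratio of replicate pair 1, and -0.61, -0.71, -0.64 and -0.60 in pairs 2 to 5. Pair 1 had the smallest shift, and the median was below 0 in every pair.

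**Figure D1:**
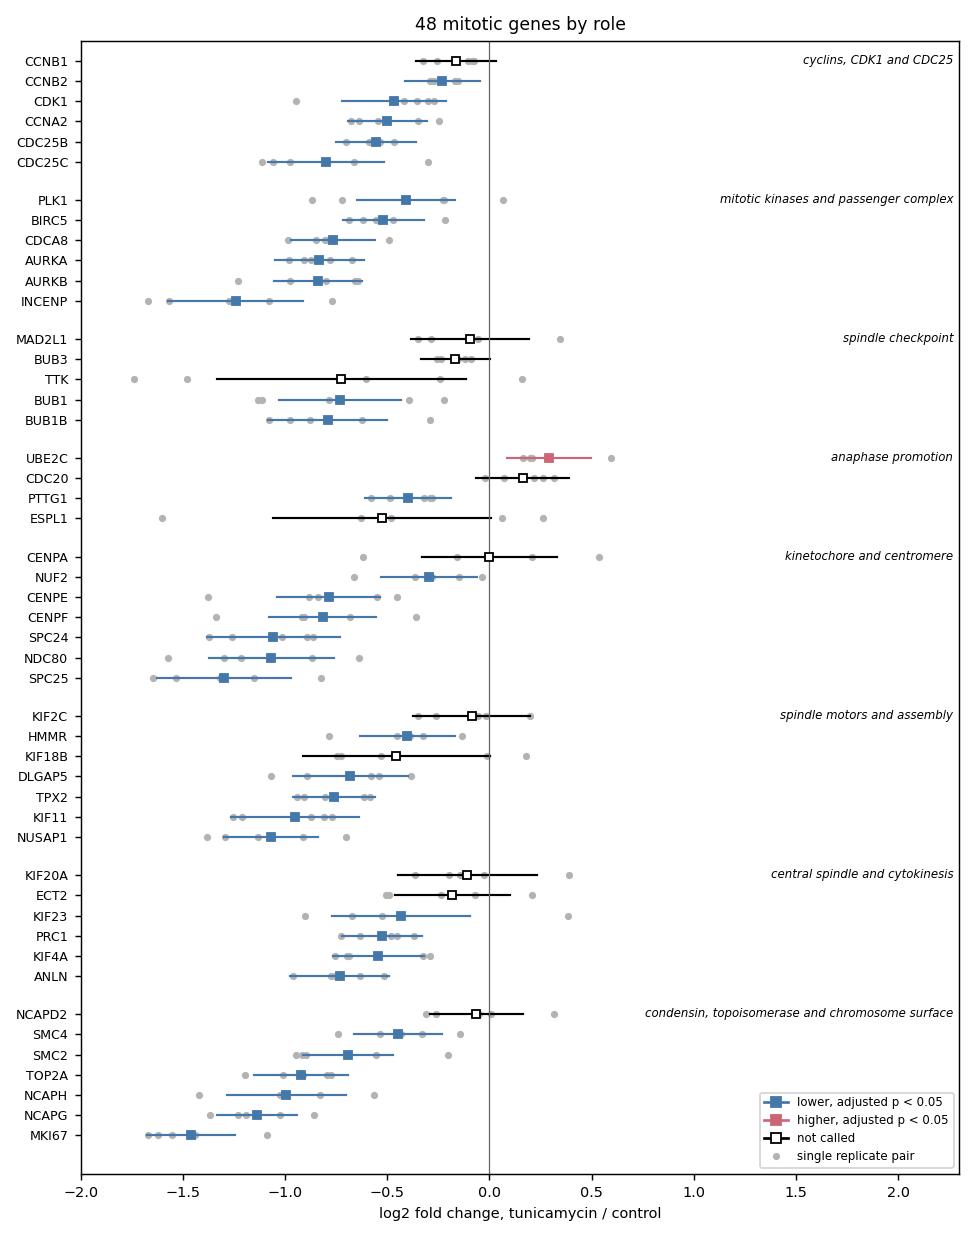
Log2 fold change of each of the 48 genes (tunicamycin over control), grouped by role: squares are edgeR estimates with 95% intervals, filled blue if called lower, filled red if called higher and open if not called, and grey points are the log2 ratios of the 5 replicate pairs. Filled blue squares fill most groups, the mitotic kinases have no open square, and UBE2C is the only red square.

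The promoter words were found along the whole range of the response. Of the 31 members with a CHR word 24 were called lower with tunicamycin, with a median log2 fold change of -0.54 and a range from -1.46 to 0.16. Of the 11 matched members without the word 8 were called lower, with a median of -0.56 and a range from -1.06 to -0.09. The 25 members with the word within 50 bases of the start had a median of -0.69, and 20 of them were called lower. The difference between these sets was not tested. Only TTTGAA and TTCGAA were searched for, so a promoter without these words is not shown to lack a CHR. These values therefore do not compare genes with and without the element itself. The plot of word positions shows MKI67, SPC25 and NCAPG at one end of the order and CENPA and CDC20 at the other, all with a CHR word.

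**Figure D2:**
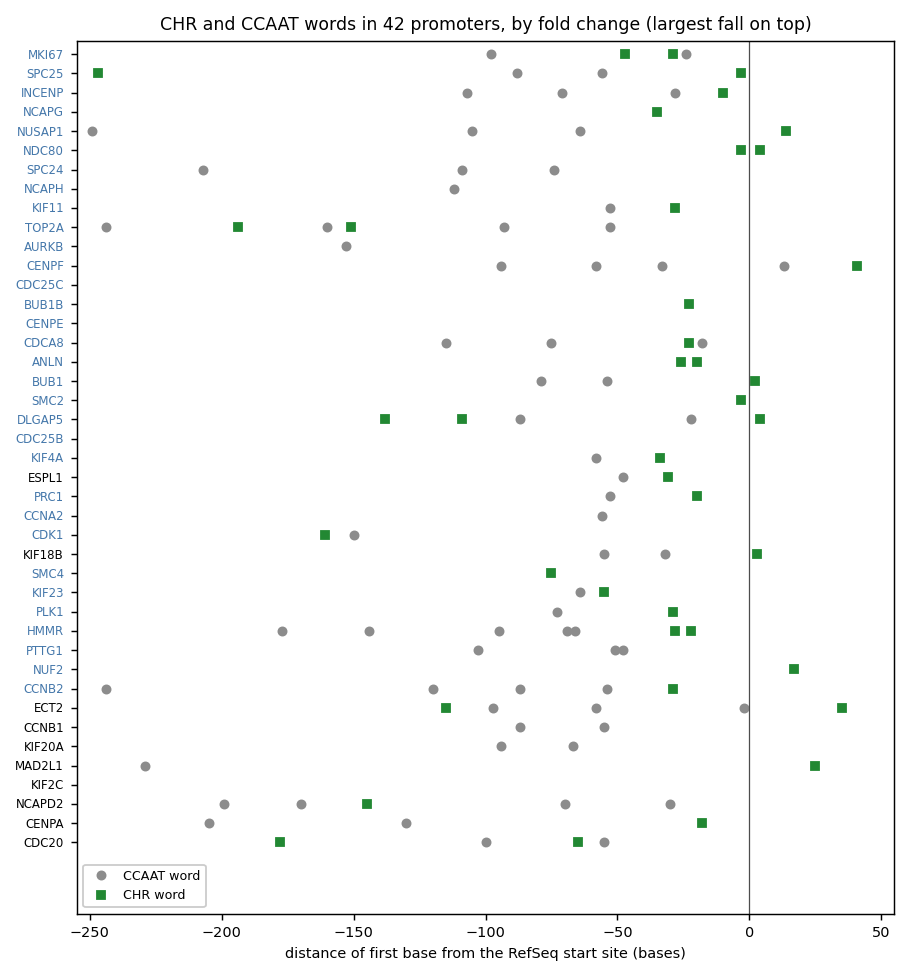
Positions of CHR words (squares) and CCAAT words (circles) in the promoters of 42 members, in bases from the RefSeq start site, with the genes ordered from the largest decrease (top) to the largest increase (bottom); blue names were called lower and black names were not called. Squares crowd within 50 bases of the start along the whole order, and 4 genes (CDC25C, CENPE, CDC25B and KIF2C) have neither word in this window.

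The cyclins, CDK1 and the CDC25 phosphatases switch on mitosis: CDK1 with cyclin A or B is the kinase that drives entry, and CDC25B and CDC25C remove the phosphates that hold it inactive. Of these 6 genes 5 fell, and the group's median log2 fold change was -0.48. The largest change was that of CDC25C. Its normalized counts, in replicate order from 1 to 5 here and below, were 137, 155, 123, 126 and 135 in the control libraries and 69.3, 71.4, 100.1, 79.7 and 64.6 in the tunicamycin libraries. The groups did not overlap, and the log2 fold change was -0.80 ± 0.14 (edgeR adjusted p = 0.000154). Errors are SE for log2 fold changes and SD over 5 libraries for normalized counts. CDC25B fell by 0.56 and CCNA2 (cyclin A2) by 0.50 on the log2 scale, and CDK1 itself fell from 207 ± 31.8 to 149.8 ± 16.0 normalized counts (-0.47 ± 0.12; edgeR adjusted p = 0.00547).

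The cyclin B genes moved least in this group. CCNB1 gave 353, 345, 391, 371 and 371 normalized counts in the control libraries and 334, 275, 368, 345 and 311 in the tunicamycin libraries. The groups overlapped although each treated library was below the control of the same replicate number, and the log2 fold change of -0.16 ± 0.09 did not pass the test (edgeR adjusted p = 0.191, 95% interval -0.36 to 0.03). CCNB2 gave 269, 269, 291, 295 and 269 in control and 239, 242, 241, 243 and 219.9 in tunicamycin libraries. These groups did not overlap, and the small decrease of -0.23 ± 0.09 passed with an edgeR adjusted p of 0.0492. It did not pass with the replicate number as a block (adjusted p = 0.0537 with edgeR and 0.13 with DESeq2), and it lost its call when any library other than control replicate 1 was left out (adjusted p between 0.0643 and 0.117).

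The mitotic kinases and the chromosomal passenger complex fell as a whole. PLK1 and AURKA (Aurora A) act at the centrosomes and spindle poles, and AURKB (Aurora B) is the enzyme of the passenger complex, which also holds INCENP, BIRC5 (survivin) and CDCA8 (borealin) and corrects faulty attachments of chromosomes to the spindle. All 6 genes passed the test, with a median of -0.80. INCENP, the scaffold of the complex, gave 156, 166, 129, 172 and 137 normalized counts in control and 91.2, 55.6, 52.9, 53.6 and 64.6 in tunicamycin libraries. The highest treated library, replicate 1, lay well below the lowest control library, and the decrease was 2.37-fold (log2 -1.24 ± 0.16; edgeR adjusted p = 6.25e-06). AURKA fell from 1806 ± 161 to 1012 ± 150.5 and AURKB from 569 ± 39.9 to 316 ± 47.5 normalized counts (SD, n = 5), log2 fold changes of -0.83 and -0.84. PLK1 changed least: its control libraries gave 1234, 1049, 919.5, 762 and 983 and its tunicamycin libraries 675, 635, 788, 798 and 839. Control replicate 4 lay among the treated libraries and pair 4 showed no decrease. PLK1 was lower in 4 of 5 pairs, and the fit to all libraries, which does not use the pairs, called it lower (log2 -0.41 ± 0.11, edgeR adjusted p = 0.00937).

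The spindle checkpoint, which holds back anaphase until all kinetochores are attached, changed less evenly. Of its 5 genes, BUB1 and BUB1B (BubR1) fell, and BUB3, MAD2L1 (Mad2) and TTK (the kinase Mps1) did not pass the test. BUB1B gave 118, 141, 186, 179 and 143 normalized counts in control and 96.3, 76.4, 87.9, 90.7 and 92.8 in tunicamycin libraries. The groups did not overlap, and the log2 fold change was -0.79 ± 0.14 (edgeR adjusted p = 0.00021). MAD2L1 gave 93.0, 98.1, 135, 116 and 124 in control and 118, 91.3, 111, 90.7 and 119 in tunicamycin libraries. The groups lay across each other, with replicate 1 higher and the other 4 replicates lower after treatment, and the 95% interval of the log2 fold change ran from -0.38 to 0.19. BUB3, with a tight interval of -0.34 to 0.00, had every treated library below every control library, yet its edgeR adjusted p was 0.118.

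TTK had few counts, 43.9, 50.8, 23.6, 27.8 and 40.7 normalized counts in control and 28.7, 14.9, 26.4, 9.62 and 34.3 in tunicamycin libraries. The groups overlapped, and TTK was lower with tunicamycin in 4 of 5 pairs and slightly higher in pair 3. Its log2 fold change was -0.73 ± 0.29 with an edgeR adjusted p of 0.061, and with the replicate number as a block it passed edgeR's test (adjusted p = 0.0303) but not that of DESeq2 (adjusted p = 0.0719). It also passed without control replicate 3, control replicate 4, tunicamycin replicate 1 or tunicamycin replicate 5 (adjusted p between 0.0354 and 0.0495).

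The genes that act at the onset of anaphase included the only member called higher. CDC20 activates the anaphase-promoting complex, UBE2C is the ubiquitin-conjugating enzyme that works with it, PTTG1 (securin) is its target, and ESPL1 (separase) is the protease that securin restrains. PTTG1 fell, UBE2C rose, and CDC20 and ESPL1 did not pass the test. UBE2C gave 207, 227, 212, 205 and 221 normalized counts in control and 237, 255, 245, 310.5 and 268 in tunicamycin libraries. Every treated library was above every control library and replicate 4 was highest, for a log2 fold change of 0.29 ± 0.10 (edgeR adjusted p = 0.0278). The call was lost when control replicate 4 (adjusted p = 0.0523) or tunicamycin replicate 4 (0.0783) was left out, and with DESeq2 and a replicate block (0.0707). It was also lost with library size only in place of TMM (edgeR adjusted p = 0.118) and with all libraries thinned to the lowest depth (0.161). Leaving out both tunicamycin replicates 4 and 5, chosen after seeing the data, lost the call too (edgeR adjusted p = 0.155). CDC20 gave 183, 170.3, 144, 165 and 172 in control and 193, 168, 168, 198 and 214 in tunicamycin libraries. It was higher in 4 of 5 pairs with overlapping groups, and the interval of its log2 fold change was -0.07 to 0.39 (edgeR adjusted p = 0.266).

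ESPL1 had the largest estimate of these 4 genes and the least certain. Its values were 26.7, 42.8, 61.2, 61.8 and 65.1 normalized counts in control and 32.1, 44.7, 19.8, 39.8 and 46.4 in tunicamycin libraries. Control replicate 1 was the lowest control value, and without it ESPL1 was called lower (edgeR adjusted p = 0.0205), whereas over all libraries the log2 fold change of -0.53 ± 0.25 did not pass (0.12). PTTG1 fell from 974 ± 149 to 738 ± 59.9 normalized counts (SD, n = 5; log2 -0.40 ± 0.10; edgeR adjusted p = 0.00447).

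**Figure D3:**
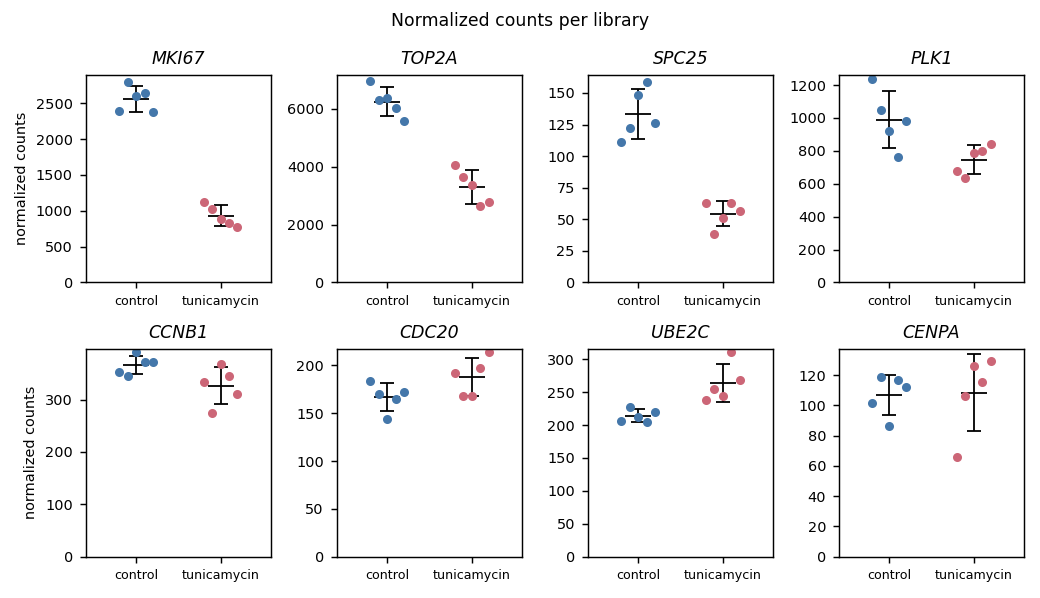
Normalized counts of 8 members in each of the 5 control (blue) and 5 tunicamycin (red) libraries, in replicate order from left to right, with bars for the mean and SD and every axis starting at 0. MKI67, TOP2A and SPC25 separate the groups by a wide gap, PLK1 and CCNB1 overlap, UBE2C is higher with tunicamycin and CDC20 and CENPA show no called change.

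The kinetochore and centromere genes held some of the deepest decreases. NDC80, NUF2, SPC24 and SPC25 form the rod that grips microtubules, CENPE is a kinetochore motor, CENPF a large protein of the outer kinetochore, and CENPA the histone variant that marks centromeres. Of these 7 genes 6 fell, 3 of them by more than 2-fold, and the median was -0.82. SPC25 gave 111, 122, 149, 159 and 126 normalized counts in control and 62.5, 38.7, 51.0, 63.2 and 56.5 in tunicamycin libraries. The highest treated value was below the lowest control value by a wide margin, and the decrease was 2.46-fold (log2 -1.30 ± 0.16; edgeR adjusted p = 3.08e-06). CENPF, measured with many counts, fell from 2665 ± 255 to 1511 ± 329 and CENPE from 788 ± 54.4 to 454 ± 97.4 normalized counts. Within this group NUF2 had the smallest decrease that passed (-0.30 ± 0.11, edgeR adjusted p = 0.0459). It lost its call without any library other than control replicate 1 or tunicamycin replicate 1 (adjusted p between 0.0517 and 0.148) and with DESeq2 and a replicate block (0.0774).

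CENPA gave 102, 119, 86.6, 116 and 112 normalized counts in control and 65.9, 106, 126, 115 and 129 in tunicamycin libraries. Tunicamycin replicate 1 was far below the rest and the other values lay across those of the controls, with a log2 fold change of -0.00047 and a 95% interval of -0.33 to 0.33. The interval leaves room for changes of either sign, and the sign of the estimate turned in 6 of the 19 alternative settings. Exons of CENPA overlap those of SLC35F6 on the same strand, a gene with 4224 counts over all libraries against 1056 for CENPA, so that the split of reads between them is uncertain.

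Among the spindle motors and assembly factors, 5 of 7 genes fell, with a median of -0.68. KIF11 (Eg5) pushes the spindle poles apart, TPX2 and NUSAP1 help microtubules grow around chromosomes, HMMR and DLGAP5 (HURP) stabilise spindle fibres, and KIF2C and KIF18B shorten microtubules. NUSAP1 gave 417, 445, 468, 452 and 369 normalized counts in control and 256, 202, 191, 173 and 196 in tunicamycin libraries. The groups were far apart, and the decrease was 2.1-fold (log2 -1.07 ± 0.11; edgeR adjusted p = 4.42e-07). KIF11 followed with -0.95, TPX2 with -0.76, DLGAP5 with -0.68 and HMMR with -0.40, all passing the test. The microtubule-shortening motors did not pass. KIF2C gave 162, 178, 183, 207 and 201 in control and 127, 149, 209.7, 205 and 194 in tunicamycin libraries, with overlapping groups and an interval of -0.37 to 0.20. KIF18B had a wide interval of -0.91 to 0.00, and without control replicate 1 it was called lower (edgeR adjusted p = 0.00638).

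The central spindle and cytokinesis genes act after the chromosomes part, when PRC1 bundles the midzone microtubules, KIF4A, KIF23 and KIF20A work there as motors, ECT2 switches on the contractile ring and ANLN (anillin) anchors it. Of these 6 genes 4 fell, with a median of -0.48. ANLN gave 248, 313, 339, 331 and 307 normalized counts in control and 159.6, 183, 174, 231 and 182 in tunicamycin libraries. The groups did not overlap, and the log2 fold change was -0.73 ± 0.12 (edgeR adjusted p = 6.98e-05). KIF4A and PRC1 fell by 0.54 and 0.52 on the log2 scale. KIF23 passed narrowly (-0.43 ± 0.16; edgeR adjusted p = 0.0448), and its call was lost in 8 of the 10 fits that left out a library, all but those without control replicate 1 or tunicamycin replicate 1 (adjusted p between 0.0573 and 0.148), as well as with DESeq2 and a replicate block (0.0896). KIF20A gave 63.7, 82.9, 106, 114 and 116 in control and 83.6, 81.4, 82.2, 103 and 101 in tunicamycin libraries, which overlapped fully, for an interval of -0.45 to 0.23. For ECT2 the interval was -0.46 to 0.10.

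The group of condensin, topoisomerase and chromosome surface genes had the lowest median, -0.92, and 6 of its 7 genes fell. SMC2 and SMC4 are the arms of the condensin ring, NCAPD2, NCAPG and NCAPH complete condensin I, TOP2A (topoisomerase II alpha) untangles sister chromatids, and MKI67 encodes Ki-67, the protein that coats mitotic chromosomes and serves pathologists as the marker of dividing cells. MKI67 gave 2389, 2798, 2603, 2642 and 2377 normalized counts in control and 1123, 1030.0, 886, 829.8 and 773 in tunicamycin libraries. No treated library came near the controls, and the 2.75-fold decrease was the largest of the 48 (log2 -1.46 ± 0.10; edgeR adjusted p = 3.36e-09). TOP2A fell from 6245 ± 507 to 3294 ± 596 normalized counts (SD, n = 5; log2 -0.92 ± 0.11; edgeR adjusted p = 3.07e-06).

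NCAPD2 was the exception in this group. It gave 210.0, 277, 269, 295 and 296 normalized counts in control and 262, 231, 259, 297 and 238 in tunicamycin libraries. Control replicate 1 was the lowest of all and the other values overlapped, so that the log2 fold change was -0.06 ± 0.11 with an interval of -0.29 to 0.17. Exons of MRPL51, a gene with more counts, lie opposite those of NCAPD2. By contrast NCAPG fell by 1.14 and NCAPH by 1.00 on the log2 scale, SMC2 by 0.69 and SMC4 by 0.45.

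Proteins of the same complex are usually needed in fixed proportions, and the deposited counts allow the ratio of their mRNAs to be compared within each library, where the library's scaling cancels. For 22 pairs of subunits in 3 complexes, the log2 ratio was compared between conditions with a two-sided exact permutation test over the 252 splits of 10 libraries, which cannot give a p below 0.00794, and adjusted over the 22 pairs. After adjustment 11 pairs passed at 0.05, 8 of them at the smallest p the design allows. Pairs within a complex share subunits, so the counts of passing pairs are not counts of separate results. The permutation test does not keep the replicate pairs. A test that keeps them, added after seeing the data, has 32 sign assignments and cannot give a p below 0.0625, so no ratio could pass it at 0.05; all 11 reached that smallest p.

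In condensin I 7 of 10 pairs passed the threshold. Most of these set an arm, SMC2 or SMC4, against another subunit. The arms also belong to condensin II, so their ratios to the other subunits need not be fixed. The log2 ratio of NCAPD2 to NCAPG counts was -0.93 ± 0.16 in control cells (SD, n = 5) and 0.15 ± 0.10 with tunicamycin, a shift of 1.08 ± 0.086 (SE, exact permutation p = 0.00794, adjusted 0.0218) that was seen in 5 of 5 pairs. Against NCAPH, NCAPD2 gained 0.91 ± 0.21 (exact permutation p = 0.00794, adjusted 0.0218), and the smallest shift in this complex was that of NCAPG against NCAPH (-0.17 ± 0.17, exact permutation p = 0.333, adjusted 0.407). Ratios with NCAPD2 are less certain, since exons of MRPL51 lie opposite and the strand setting of the counting is not spelled out. The ratio of the arms SMC2 and SMC4 moved by -0.26 ± 0.11 in 5 of 5 pairs without passing after adjustment (exact permutation p = 0.0397, adjusted 0.0672).

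In the NDC80 complex the divergent subunit was NUF2. Its ratio to SPC25 rose by 0.99 ± 0.12 and that of NDC80 to NUF2 fell by 0.82 on the log2 scale (both exact permutation p = 0.00794, adjusted 0.0218), and its ratio to SPC24 rose by 0.78 ± 0.22 (exact permutation p = 0.0238, adjusted 0.0476). Among the other 3 subunits no ratio passed: the shift was -0.04 ± 0.23 for NDC80 to SPC24, 0.18 ± 0.23 for NDC80 to SPC25 and 0.22 ± 0.25 for SPC24 to SPC25 (exact permutation p = 0.889, 0.476 and 0.421). In the passenger complex 1 of 6 pairs passed, INCENP against BIRC5 (-0.76 ± 0.20, exact permutation p = 0.0159, adjusted 0.035). AURKB against CDCA8 had the smallest shift, -0.08 ± 0.08 (exact permutation p = 0.373, adjusted 0.432).

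**Figure D4:**
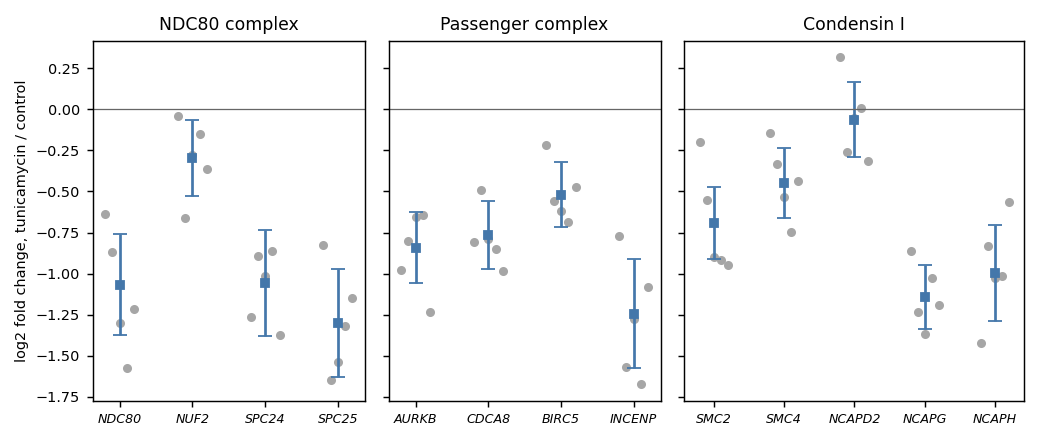
Log2 fold change (tunicamycin over control) of the subunits of the NDC80 complex, the passenger complex and condensin I, with squares for edgeR estimates, bars for 95% intervals and grey points for the 5 replicate pairs in order. NUF2 sits above its 3 partners and NCAPD2 above the other condensin subunits, near 0.

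Further genes with the same tasks, from lists written for this comparison, are set beside the 48 without a test of the difference. Among all tested genes 16.6% were called lower and 17.6% higher. Of 35 other kinetochore and centromere genes 23 fell and 2 rose, with a median log2 fold change of -0.57. CENPI, a constitutive centromere protein, fell from 72.7 ± 6.72 to 18.4 ± 8.07 normalized counts, and ZWINT and DSN1, of the outer kinetochore, fell by 1.22 and 1.01 on the log2 scale. MAD2L1BP, whose product takes Mad2 out of the checkpoint complex, rose from 26.5 ± 11.3 to 70.8 ± 18.0 (edgeR adjusted p = 0.000408). The other gene called higher, MIS12 (0.67, named after its values were seen), was higher in 4 of 5 pairs. Of 43 other spindle, motor and cytokinesis genes 26 fell and 2 rose, with a median of -0.65. The motors KIF15 and KIFC1 fell by 1.27 and 1.26 and the spindle protein CKAP2L by 1.11 on the log2 scale, and BORA, the activator of Aurora A, rose from 31.2 ± 14.2 to 58.5 ± 18.5. The other gene called higher there, TACC3, named after its values were seen, was high in tunicamycin replicates 4 and 5 (1894 and 2698 normalized counts, against 343 to 713 in the other 3 treated and 512 to 598 in the control libraries) and lower than its control in 2 of 5 pairs. Of 19 genes of cohesin and condensin II 11 fell and 0 rose, with a median of -0.38. ESCO2, a cohesin acetyltransferase, fell by 1.31 on the log2 scale.

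The anaphase-promoting complex and its partners were mixed. Of 16 tested genes 5 fell (31.2%) and 3 rose, with a median of -0.17. Among all tested genes 16.6% were called lower and 17.6% higher, and the rises are not read as particular to this complex. FBXO5 (EMI1), an inhibitor of the complex, fell by 0.82 and the subunits ANAPC15 and ANAPC11 by 0.61 and 0.41 on the log2 scale, while the subunit CDC23 rose by 0.51 ± 0.19 (edgeR adjusted p = 0.0468). The other genes that rose, UBE2D1 (0.97) and ANAPC13 (0.71), were higher in 4 of 5 pairs, and ANAPC2 had the deepest fall (-1.90) at 4.46 ± 1.89 normalized counts in control cells; these 3 were chosen after their values were seen. Exons of CDC23 lie opposite those of KIF20A.

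The regulators that bind mitotic promoters moved in both directions. Of 15 tested genes 4 fell (26.7%) and 2 rose, beside 16.6% lower and 17.6% higher among all tested genes, and nothing particular to the regulators is read from these counts. The activators MYBL2 and FOXM1 fell, MYBL2 from 650.3 ± 121 to 286 ± 34.2 normalized counts (log2 -1.18 ± 0.12; edgeR adjusted p = 4.4e-07) and FOXM1 by 0.46 on the log2 scale (edgeR adjusted p = 0.00689). Of the DREAM components RBL1 fell (-1.05 ± 0.11) and TFDP2 fell (-0.56 ± 0.11), whereas E2F4 rose from 111 ± 36.2 to 200.4 ± 27.8 and E2F5 from 43.6 ± 2.58 to 83.2 ± 9.28 normalized counts (log2 0.85 ± 0.18 and 0.92 ± 0.14). RBL2, LIN9, LIN52, LIN54, TFDP1, RBBP4 and the 3 NF-Y subunits did not pass the test, with log2 fold changes from -0.22 to 0.41.

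Of 13 tested genes that brake entry into mitosis or answer to p53, 5 fell (38.5%) and 3 rose. Among all tested genes 16.6% were called lower and 17.6% higher, and nothing particular to these genes is read from the counts. The kinase PKMYT1, which holds CDK1 inactive, fell by 1.43, the checkpoint adaptor CLSPN by 1.35 and the checkpoint kinase CHEK1 by 0.75 on the log2 scale. WEE1, the other CDK1-inhibiting kinase, and CDKN1A (p21) fell as well (-0.68 ± 0.17 and -0.48 ± 0.12). They are named outside the rule used for the other lists. GADD45A rose by 0.56 ± 0.12, CCNG1 by 0.47 ± 0.12 and CCNG2, at few counts, by 1.02 ± 0.32.

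Beside genes of earlier phases, the mitotic genes had the middle median of 3 lists and the highest share of genes called lower, and these differences were not tested. Of 25 genes of the MCM helicase and origin firing, which act in G1 and S phase, 16 fell (64%) with a median of -0.93, and 11 fell by more than 2-fold, MCM5 by 1.97 on the log2 scale. Of 15 G1 cyclins, CDKs and E2F factors 7 fell (46.7%) with a median of -0.39, E2F2 and E2F1 by 1.81 and 1.26, while RB1 rose by 0.80 ± 0.24. Of all tested genes 16.6% were called lower.

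**Figure D5:**
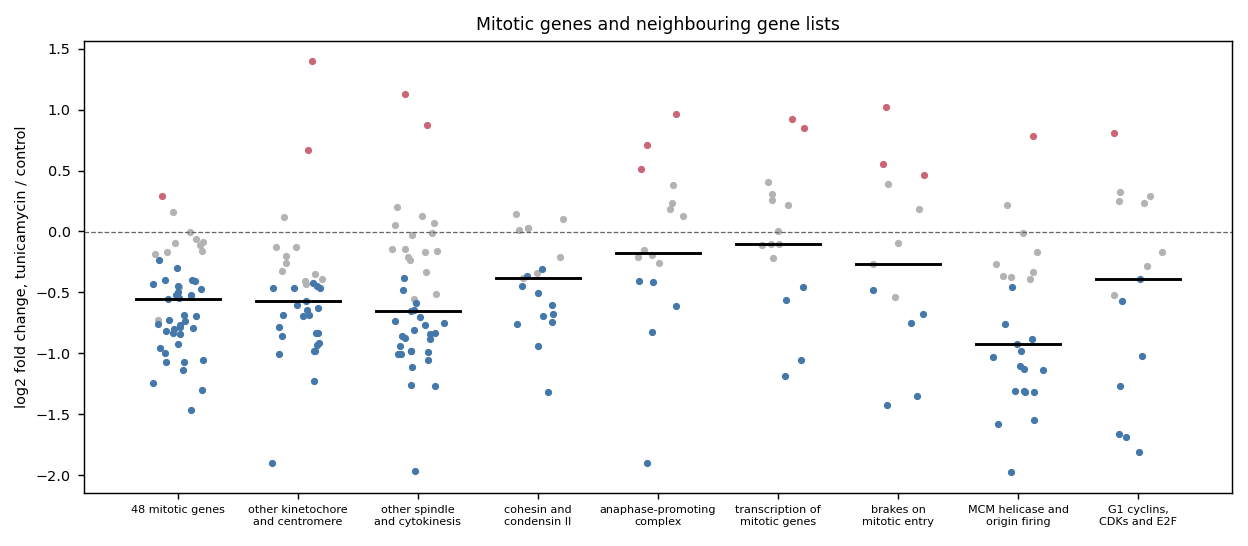
Log2 fold change (tunicamycin over control) of the 48 mitotic genes and of 8 neighbouring gene lists, 1 point a gene, blue if called lower, red if called higher and grey if not called, with black bars for medians and a dashed line for the median of all tested genes. The kinetochore and spindle lists lie at the level of the 48, the MCM list lies lower, and the lists of the anaphase-promoting complex and of the transcription factors lie nearer to 0.

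Some members share exons with other genes on GRCh38, where their positions were looked up by identifier. Exons of 4 members (BUB1B, CENPA, NUSAP1 and PRC1) overlap another gene on the same strand, and those of 16 overlap a gene on the opposite strand. The library kit keeps the strand, but the methods name a pipeline with default settings and do not spell out whether counting used the strand, so these values are less certain where the partner is strongly expressed. Partners with more counts than the member include MRPL51 opposite NCAPD2 (6879 against 2633 counts over all libraries), BRD8 opposite KIF20A (3046 against 922), FAM53C opposite CDC25C (1527 against 1098) and SLC35F6 beside CENPA. SPC24 also has exons opposite those of a gene with more counts, so its fold change and ratios are less certain too. KIF4B and PTTG2, near copies of KIF4A and PTTG1, had 6 counts and 0 counts in all libraries together.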

How the data were processed

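Per the labels, total RNA of HepG2 cells was made into 3′ libraries with the Lexogen QuantSeq FWD kit, and the authors deposited raw counts per gene on the build hg19, without normalization. The methods name the nf-core RNA-Seq pipeline run with its defaults and do not spell out the strand setting of the counting. Counts were filtered with filterByExpr (minimum count 2, minimum total 10), scaled by TMM and tested with edgeR 4.0.16 in R 4.3.3 (quasi-likelihood test, condition as the only term, Benjamini-Hochberg adjustment over all tested genes, threshold 0.05). The standard error (SE) of a log2 fold change came from its F statistic, and log2 ratios used a pseudocount of 0.5. The members and the gene lists were chosen with earlier results of these data known. Values in every library are given for the genes with the largest and the smallest absolute change in each role. They are also given for genes called higher and for genes whose call moved with edgeR's replicate block. Other lists are named by at most 3 rises and 3 falls. Named beyond that were the regulators, WEE1, CDKN1A and the genes marked as chosen or named after their values were seen. The series text places the 5 replicates on separate days, and equal replicate numbers were taken to pair a control with a tunicamycin library. The deviations from the group means correlated within these pairs at 0.36, 0.0197, 0.0764, 0.162 and 0.137 over 9707 genes. Unmatched libraries were not compared in this way. The fit was tested on simulated data. Alternatives were other scalings, no filter and default filters, DESeq2 1.42.0, the block, thinned counts and each library left out. The depth of 2234682 to 5029864 counts limits genes with few counts. Promoters are RefSeq windows, and gene positions are from GENCODE on GRCh38. No coordinate of hg19 is given. A result for 1 overlapping gene is not reported here.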

Additional observations from a re-analysis of the deposited data

Results flagged for a closer look

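In 4 of the 96 groups of 5 values (48 genes in 2 conditions), a library lay far from the other 4 by Dixon's criterion, where chance gives about 4.8. CCNB2 was low in tunicamycin replicate 5, with 219.9 normalized counts against 239 to 243 in the others. NUF2 was low in tunicamycin replicate 2, with 164 against 223 to 228, and PTTG1 was high in control replicate 1, with 1228 against 863 to 962. DLGAP5 was high in control replicate 2, with 149.8 against 115 to 125. PTTG1 and DLGAP5 were called lower in every fit that left out a library, and CCNB2 and NUF2 were not.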

How the results depend on the processing

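The 48 genes were refitted in 19 alternative settings. The count called lower lay between 31, without tunicamycin replicates 4 and 5, and 37 beside 35 (32 to 37 with a library left out), the median log2 fold change between -0.65 and -0.52 (the same range with a library left out), and the calls over all genes between 3477 and 4811 beside 4353. The count called higher was 0 in place of 1, UBE2C having lost its call, in 4 settings besides those that leave out a library: scaling by library size only, DESeq2 fitted with the replicate block, all libraries thinned to the lowest depth, and tunicamycin replicates 4 and 5 both left out, which was chosen after seeing the data, and it was 0 to 1 over the fits without a library. No called gene turned its direction, and 40 members neither lost nor gained a call in any setting. CCNB2 lost its call in 14 settings, NUF2 in 12, KIF23 in 11, UBE2C in 6 and HMMR in 1 (tunicamycin replicates 4 and 5 left out, adjusted p = 0.0762). TTK gained a call in 7, ESPL1 and KIF18B in 1 each. NUF2 kept its call without control replicate 1 or tunicamycin replicate 1 and lost it without any other library (adjusted p 0.0517 to 0.148), and the same 2 libraries could be left out for KIF23 (0.0573 to 0.148 without any other). The cause was not tested. In edgeR the replicate block moved the number of genes called to 4811 and the calls of CCNB2 and TTK (adjusted p = 0.0537 and 0.0303), and no other call of a member. In DESeq2 with the block 3878 genes were called, CCNB2, UBE2C, NUF2 and KIF23 lost their calls (0.13, 0.0707, 0.0774 and 0.0896) and no member gained one (TTK 0.0719). With library size only, 59.2% of the genes called were lower, against 48.6% with TMM, and the median of all genes moved to -0.083 while that of the members moved to -0.63. The signs of CENPA, KIF2C and KIF20A, which did not pass the test, turned in some settings.
Depth limits the genes with few counts: TTK and ESPL1 had under 70 normalized counts in each library and the widest intervals.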
